A study of Mus musculus with 6 samples.

Results

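Small nucleolar RNAs (snoRNAs) and the spliced noncoding transcripts that carry them were read in mouse tissue with and without a large enhancer of Atoh7. The members were chosen by symbol. They are the 110 genes named Snora or Snord followed by a digit, of which 74 are box C/D and 36 are box H/ACA genes, and 16 host transcripts, which are Gas5 and every gene named Snhg followed by digits only. By the annotation used, 8 of the 16 were assigned as the host of a counted snoRNA gene. The other 8, among them Snhg7, which had no unique match in it, were assigned no counted snoRNA gene and are called hosts by their names. Together they make 126 of the 24411 gene symbols counted. All samples are from postnatal day 18, 3 from wild-type mice (WT) and 3 from mice with the large Atoh7 enhancer knocked out (enhancer KO). The labels name no strain, sex or litter and describe no further allele or treatment. They call the libraries independent replicates, so p-values measure the spread between these samples. The series asks about a regulatory module of Atoh7, a transcription factor gene that retinal ganglion cells need to form.

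Most snoRNAs of mammals are cut from introns. The host transcript is spliced, its intron is released, and exonucleases trim the intron down to the snoRNA, which proteins protect. Box C/D snoRNAs pair with ribosomal RNA and guide methylation of the ribose, and box H/ACA snoRNAs guide the change of uridine to pseudouridine. Many hosts encode ribosomal proteins and translation factors, while Snhg and Gas5 transcripts encode no long protein and are known for the snoRNAs in their introns and, for several of them, for decay after splicing. A snoRNA and its host therefore come from the same primary transcript but are separate stable RNAs. Reads over a snoRNA gene can come from the mature snoRNA or from the unspliced intron around it.

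The motifs that name both classes are shown here in the snoRNAs that the results turn on. In box C/D genes the capitals mark an exact C box (TGATGA, searched in the first 20 bases) and the D box (CTGA, in the last 20 bases). In box H/ACA genes they mark the ACA in the last 6 bases. Only the RNA strand was searched, the motifs do not overlap, and the sequences are GENCODE release M21 transcripts on mm10, written 5′ to 3′ as DNA. The first 4 had many reads in every library, and the 6 after them had a lower ratio to their host in enhancer KO.
Snord17, chr2:144265979-144266216, minus strand: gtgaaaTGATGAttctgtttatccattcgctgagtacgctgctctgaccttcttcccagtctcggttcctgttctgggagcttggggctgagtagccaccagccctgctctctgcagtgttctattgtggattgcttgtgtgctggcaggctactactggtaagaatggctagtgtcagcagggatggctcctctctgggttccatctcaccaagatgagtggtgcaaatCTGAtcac
Snord15b, chr7:99479563-99479707, minus strand: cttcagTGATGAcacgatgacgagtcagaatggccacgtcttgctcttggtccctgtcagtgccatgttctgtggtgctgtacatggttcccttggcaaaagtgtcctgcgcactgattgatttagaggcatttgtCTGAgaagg
Snord64, chr7:59978808-59978874, minus strand: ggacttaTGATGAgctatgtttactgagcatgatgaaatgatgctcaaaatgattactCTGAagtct
Snord22, chr19:8725866-8725991, plus strand: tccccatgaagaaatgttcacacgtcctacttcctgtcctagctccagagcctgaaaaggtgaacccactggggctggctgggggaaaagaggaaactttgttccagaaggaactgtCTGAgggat
Snord98, chr10:62765576-62765640, minus strand: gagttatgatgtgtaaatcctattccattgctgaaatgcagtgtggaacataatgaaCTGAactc
Snord96a, chr11:48802032-48802112, plus strand: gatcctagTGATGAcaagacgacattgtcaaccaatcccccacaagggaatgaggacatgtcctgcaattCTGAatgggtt
Snord2, chr16:23108953-23109021, plus strand: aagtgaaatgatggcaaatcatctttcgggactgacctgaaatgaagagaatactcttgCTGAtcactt
Snora28, chr12:111540941-111541067, plus strand: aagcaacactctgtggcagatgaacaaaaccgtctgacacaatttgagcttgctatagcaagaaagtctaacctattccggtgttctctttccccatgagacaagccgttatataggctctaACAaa
Snora35, chrX:146994381-146994508, plus strand: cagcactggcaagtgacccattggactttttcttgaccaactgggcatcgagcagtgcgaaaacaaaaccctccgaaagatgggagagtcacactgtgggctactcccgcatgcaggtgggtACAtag
Snora31, chr14:75847905-75848034, plus strand: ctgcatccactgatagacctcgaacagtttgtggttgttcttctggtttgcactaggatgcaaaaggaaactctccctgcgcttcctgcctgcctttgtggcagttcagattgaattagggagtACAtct

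Across all 110 snoRNA genes the letters followed the names. The exact C box was found in 47 of 74 box C/D genes (63.5%) and in 0 of 36 box H/ACA genes, and the D box in 72 of 74 (97.3%) and in 4 of 36 (11.1%). The ACA was found in 33 of 36 box H/ACA genes (91.7%) and in 4 of 74 box C/D genes (5.41%). Box C/D genes had a median length of 80.5 bases (64 to 238) and box H/ACA genes of 132 bases (121 to 196). Snord17 is the longest of the box C/D genes. Snord22, Snord98 and Snord2 hold no exact C box in the window searched, which says only that these letters are not there.

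Libraries held 57466712 to 65530873 reads, of which 22812075 to 33076111 fell in genes in WT and 36849747 to 40858310 in enhancer KO. Reads outside annotated exons made 31.1% to 34.1% of all reads in WT and 16.8% to 18.2% in enhancer KO, and the 2 ranges do not overlap. The labels name cerebellum in one place and retina in another. The summed level of 7 photoreceptor markers was 1.01 to 2.04 CPM (reads relative to TMM-scaled library size), and that of 4 retinal ganglion markers was 9.52 to 16.8 CPM. The 7 granule neuron markers of the cerebellum, all lower in enhancer KO, summed to 1957 to 2452 CPM in WT, against 1283 to 1590 CPM in enhancer KO, and the 6 Purkinje markers, 4 of them higher, to 3946 to 4797 and 5517 to 5886 CPM. Xist was high and Ddx3y at 0 reads in WT replicate 1 only, and WT replicate 2 had 12.9% of its gene reads in the ribosomal RNA gene Rn45s, against 1.51% to 3.02% elsewhere. Atoh7 had 1.94, 2.05 and 2.13 CPM in WT, against 0.744, 0.858 and 0.695 CPM in enhancer KO. Of 15846 genes tested by edgeR's quasi-likelihood test, 31.3% passed an adjusted p of 0.05, 17.9% lower and 13.4% higher in enhancer KO. In bulk samples, fewer cells of a type and less RNA per cell cannot be told apart.

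Fewer host transcripts were read in enhancer KO. Of the 16 Snhg and Gas5 transcripts, all tested, 8 fell in enhancer KO (50%, beside 17.9% of all genes) and 0 rose. Of the 31 snoRNA genes that could be tested, 5 fell (16.1%, near that background) and 0 rose, and whether this differs from the hosts was not tested. Of the 8 hosts that fell only Gas5 and Snhg1 were assigned a counted snoRNA, so most of the host falls cannot be set beside one. The call of Snord98, the 1 of the 5 with the largest fold change, is a description only, since it passed the filter on low counts through WT alone. Snord2 and Snora35 reached the filter's minimum in all WT but not in all enhancer KO libraries, so their calls are descriptions too. The 8 snoRNA genes with the most reads include 1 of the 5 that fell. Summed over each class, the hosts had 947, 738 and 720 CPM in the WT libraries and 330, 328 and 354 CPM in the enhancer KO libraries. The snoRNA genes summed to 84.6, 93.7 and 86.0 CPM in WT, against 66.3, 93.5 and 97.8 CPM in enhancer KO. The host sums do not overlap between the groups, while those of the snoRNAs do, with enhancer KO replicate 1 the lowest library.

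**Figure D1:**
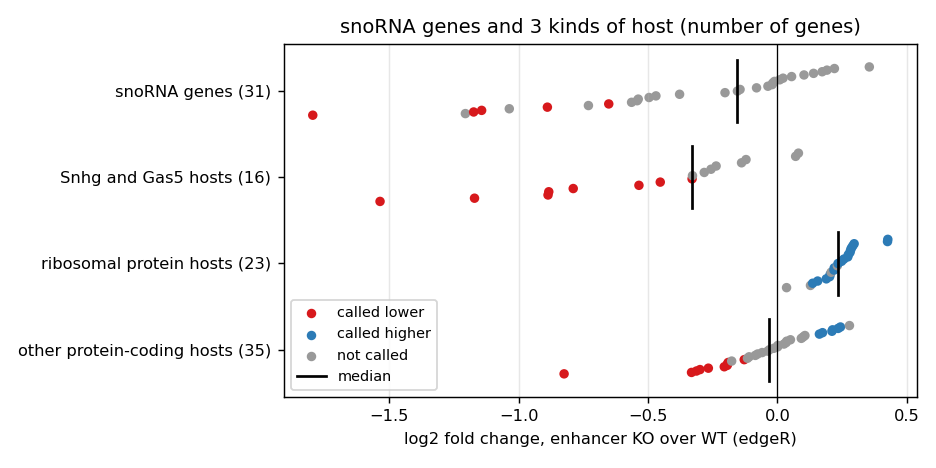
Each dot is the log2 fold change (enhancer KO over WT, horizontal axis) of a tested gene, for the 31 snoRNA genes, the 16 Snhg and Gas5 hosts, and the ribosomal protein hosts (23) and other protein-coding hosts (35) that the annotation places around counted snoRNAs. Black bars are medians and colours give the edgeR call at an adjusted p of 0.05: the Snhg and Gas5 dots called are all lower, and the ribosomal protein hosts called are all higher.

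As a share of gene reads, snoRNA genes took 0.00860% ± 0.000187 in WT and 0.00879% ± 0.00175 in enhancer KO (SD, n = 3). Snhg and Gas5 took 0.0787% ± 0.0156 and 0.0345% ± 0.00138 (SD, n = 3). Snhg11 makes up most of the second share, and without it the values were 0.0181% ± 0.000637 in WT and 0.0128% ± 0.00101 in enhancer KO (SD, n = 3). Of the snoRNA share, the sign of the small difference turned when Rn45s was left out of gene reads, or when enhancer KO replicate 2 or 3 was left out.

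Most of the host reads came from Snhg11, a transcript known from neurons that GENCODE annotates as protein-coding. It had 764, 545 and 541 CPM in WT, against 216, 202 and 221 CPM in enhancer KO. Every enhancer KO library lay far below every WT library. On the log2 scale the difference was -1.54 ± 0.154 (SE), with an edgeR adjusted p of 0.00128, and the level fell by 65.5%. Snhg17 lies beside it on the opposite strand (mm10 chromosome 2, 158353700 to 158361580, with Snhg11 at 158375638 to 158386145). It had 7.15, 6.20 and 5.95 CPM in WT, against 3.35, 3.80 and 4.03 CPM in enhancer KO (log2 fold change -0.79 with an SE of 0.131; edgeR adjusted p = 0.000844). The counts of 1 strand were used, and few reads fell on the other strand of either gene, 20 for Snhg11 and 2 for Snhg17 over the 6 libraries.

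Gas5, a host of many box C/D snoRNAs first described in growth-arrested cells, had 45.0, 51.4 and 46.1 CPM in WT, against 22.5, 27.3 and 27.2 CPM in enhancer KO. The groups do not overlap, and the difference on the log2 scale was -0.88 ± 0.0801 (SE), with an edgeR adjusted p of 2.1e-05. Snhg20 had 10.6, 11.8 and 11.7 CPM in WT, against 4.94, 5.25 and 4.89 CPM in enhancer KO (log2 fold change -1.17 with an SE of 0.0974; edgeR adjusted p = 6.96e-06). Snhg5 had 7.15, 7.03 and 7.31 CPM in WT, against 3.72, 3.54 and 4.36 CPM in enhancer KO (log2 fold change -0.89 with an SE of 0.121; edgeR adjusted p = 0.000232). In these 3 hosts the libraries of a group lie close together, and leaving out any 1 library left each of them called.

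Snhg14 is the long paternally expressed transcript of the imprinted region that also holds Snrpn, and in neurons it runs antisense to Ube3a. It had 68.3, 71.2 and 62.5 CPM in WT, against 44.1, 48.6 and 54.7 CPM in enhancer KO (log2 fold change -0.45 with an SE of 0.0784; edgeR adjusted p = 0.00200). With a trend fitted in each library to intron length, to spliced length and to GC content taken out, its log2 fold change was 0.02 and it was not called. The snoRNA clusters of this and the other imprinted regions are hardly counted: Snord116 and 2 rows named after it stand for Snord113 to Snord116, and all 3 rows had 0 reads.

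Snhg1 and Snhg3 completed the 8. Snhg1, the host of Snord22, had 7.28, 7.18 and 9.06 CPM in WT, against 4.68, 5.85 and 5.75 CPM in enhancer KO (log2 fold change -0.53 with an SE of 0.132; edgeR adjusted p = 0.00901), and without WT replicate 3, its highest library, the adjusted p was 0.0564. Snhg3 had 7.65, 8.01 and 7.72 CPM in WT, against 5.50, 6.79 and 6.28 CPM in enhancer KO (log2 fold change -0.33 with an SE of 0.109; edgeR adjusted p = 0.0380). Its ranges do not overlap, but the call held only on leaving out enhancer KO replicate 2, and the adjusted p reached 0.156 on leaving out another single library.

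The other 8 hosts did not pass. Snhg12, which lies close to Snhg3 on chromosome 4, had 6.01, 5.96 and 5.50 CPM in WT, against 4.76, 4.45 and 5.13 CPM in enhancer KO, with ranges that do not overlap and an edgeR adjusted p of 0.0885. Snhg10, Snhg7, Snhg8, Snhg4 and Snhg6 had log2 fold changes between -0.33 and -0.12, with ranges that overlap. Snhg18 (0.08) and Snhg9 (0.07) lay just above 0, and Snhg9 had only 57 reads in all. Over the 16 hosts, the median log2 fold change was -0.33, against 0.000586 over all genes tested. The hosts called lower make 50% of them, beside 17.9% of all genes, and 9 of 16 had every enhancer KO library below every WT library, beside 24.3% of all genes. For the count of 0 called higher, 0 hosts had an unadjusted edgeR p under 0.05 in that direction, and limma-voom and DESeq2 called 0. The granule neuron markers and the share of reads outside exons are also lower in enhancer KO, and their part in the fall of the hosts was not tested.

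**Figure D2:**
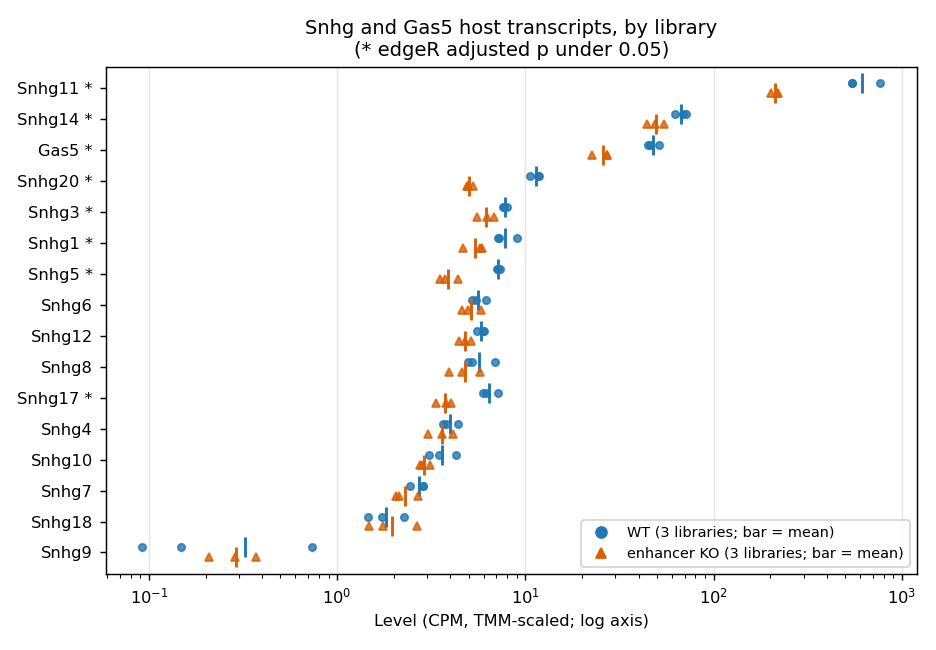
Level of the 16 Snhg and Gas5 hosts in each library (CPM, TMM-scaled, log axis), with 3 WT libraries as circles, 3 enhancer KO libraries as triangles and a bar at each mean. Stars mark the 8 hosts with an edgeR adjusted p under 0.05, whose enhancer KO libraries all lie below their WT libraries.

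Few snoRNA genes had enough reads to test. Of 110, 15 had no read in any library and 31 passed the filter on low counts, 13 of 74 box C/D and 18 of 36 box H/ACA genes. The 31 hold 91.2% of all 17736 snoRNA reads, and the 5 genes with most reads hold 69.7%. The 79 genes not tested had a median of 18 reads over the 6 libraries and 59 at most. Reads were above the filter's minimum in all 6 libraries for 17 genes. They were above it in WT libraries only for Snord98, in all WT and 1 or 2 enhancer KO libraries for 7 genes (Snord2, Snora35, Snora31 and Snord53 among them), in all enhancer KO and 1 or 2 WT libraries for 2, and in 1 or 2 libraries of each group for 4.

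The snoRNA with the most reads was Snord17, a guide for ribosomal RNA in an intron of the sorting nexin gene Snx5. It had 19.4, 22.2 and 21.5 CPM in WT, against 20.2, 26.3 and 26.8 CPM in enhancer KO, and the groups overlap through enhancer KO replicate 1. On the log2 scale it was 0.22 ± 0.106 (SE) higher, which did not pass (edgeR adjusted p = 0.149). Snora74a, a box H/ACA snoRNA in Snhg4, had 10.5, 13.4 and 13.2 CPM in WT, against 11.7, 18.4 and 17.2 CPM in enhancer KO (log2 fold change 0.35 with an SE of 0.185; edgeR adjusted p = 0.199). Without enhancer KO replicate 1 both genes were called higher, Snord17 by 0.35 (edgeR adjusted p = 0.00795) and Snora74a by 0.54 (edgeR adjusted p = 0.00482) on the log2 scale, and they were the only 2 snoRNA genes so called there.

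Enhancer KO replicate 1 was also the lowest library for several other snoRNA genes with many reads. Snord15b, a guide for ribosomal RNA in the ribosomal protein gene Rps3, had 9.37, 9.33 and 7.58 CPM in WT, against 4.36, 10.01 and 11.1 CPM in enhancer KO. Snord22, in Snhg1, had 5.46, 8.69 and 4.85 CPM in WT, against 3.64, 8.04 and 9.23 CPM in enhancer KO. Neither passed (edgeR adjusted p = 0.954 for Snord15b and 0.803 for Snord22), and in both the lowest of the 3 enhancer KO values is less than the WT values while the other 2 are not. Snora81 and Snord15a showed the same layout, with 2.02 and 0.478 CPM in that library against at least 3.13 and 1.02 CPM in every WT library. Among the 8 snoRNA genes with the most reads this library was the lowest of its group for 6 (75%), among all 31 for 16 (51.6%), and among all genes tested for 32.3%.

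Snord64, an imprinted brain snoRNA of the Prader-Willi region, did not show that layout. It had 8.70, 7.28 and 7.67 CPM in WT, against 6.99, 6.94 and 9.57 CPM in enhancer KO (log2 fold change -0.01 with an SE of 0.137; edgeR adjusted p = 0.962). No counted gene holds it in an intron. Snord104, also with no counted host, had 2.47, 3.13 and 1.92 CPM in WT, against 1.33, 2.05 and 1.94 CPM in enhancer KO without passing (log2 fold change -0.47 with an SE of 0.228; edgeR adjusted p = 0.143).

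**Figure D3:**
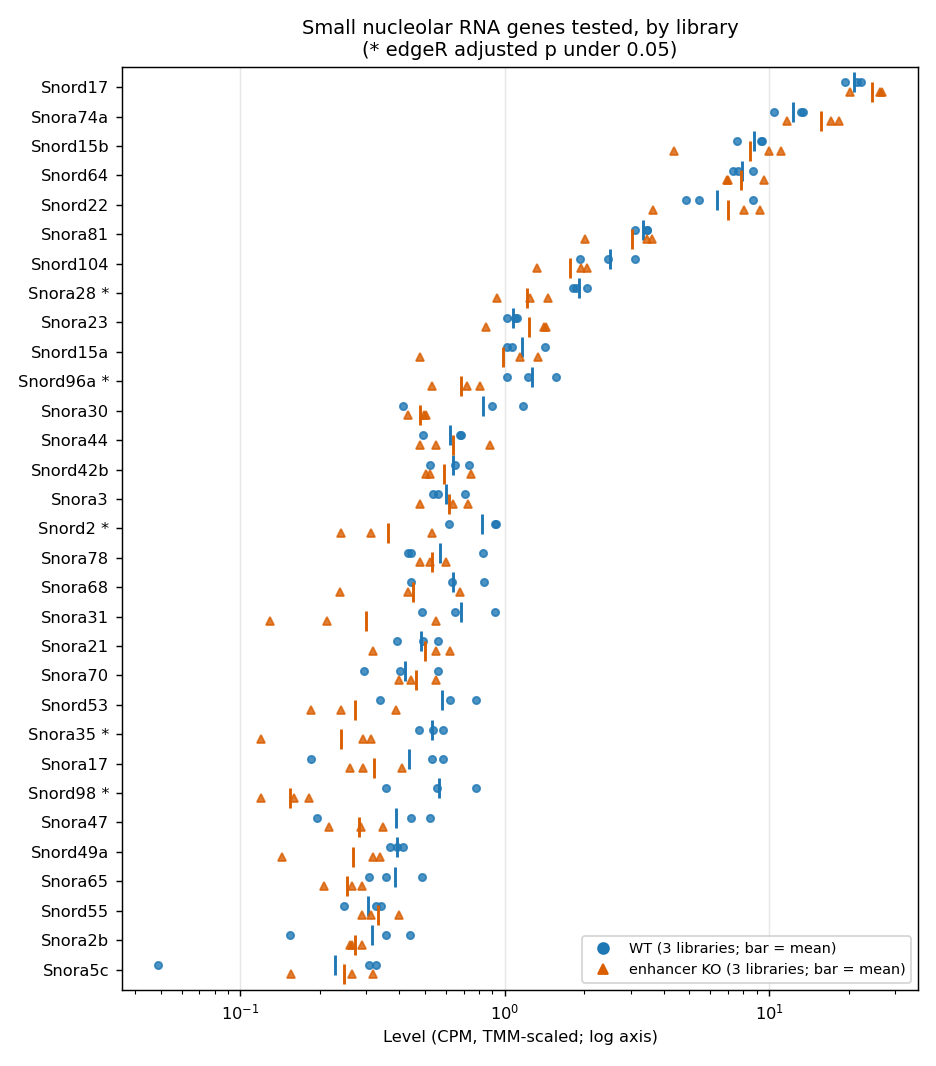
Level of the 31 tested snoRNA genes in each library (CPM, TMM-scaled, log axis), ordered by mean, with 3 WT libraries as circles, 3 enhancer KO libraries as triangles and a bar at each mean. Stars mark the 5 genes with an edgeR adjusted p under 0.05; of these Snora28 has the highest level, under 2.1 CPM in every library.

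The 5 snoRNA genes that fell all lie in protein-coding hosts. Snora28, a box H/ACA guide in the translation initiation factor gene Eif5, had 1.82, 1.86 and 2.04 CPM in WT, against 1.46, 0.936 and 1.25 CPM in enhancer KO (log2 fold change -0.65 with an SE of 0.213; edgeR adjusted p = 0.0358). Snord96a, in Gnb2l1, which encodes a scaffold protein of the ribosome, had 1.02, 1.22 and 1.57 CPM in WT, against 0.532, 0.806 and 0.719 CPM in enhancer KO (log2 fold change -0.89 with an SE of 0.267; edgeR adjusted p = 0.0246). Snord2, in the helicase gene Eif4a2, had 0.617, 0.928 and 0.917 CPM in WT, against 0.532, 0.312 and 0.240 CPM in enhancer KO (log2 fold change -1.17 with an SE of 0.351; edgeR adjusted p = 0.0240). All 3 have groups that do not overlap. Snord96a and Snord2, like Snora35, Snora31 and Snord53, were named after their values were seen.

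Snora35 is a brain-specific snoRNA in an intron of the serotonin receptor gene Htr2c. It had 0.586, 0.537 and 0.474 CPM in WT, against 0.292, 0.312 and 0.120 CPM in enhancer KO (log2 fold change -1.14 with an SE of 0.394; edgeR adjusted p = 0.0446). Snord98, in Ccar1, lies within 1 Mb of Atoh7. It had 0.555, 0.781 and 0.355 CPM in WT, from 18, 16 and 12 reads, and 0.159, 0.182 and 0.120 CPM in enhancer KO, from 6, 7 and 5 reads (log2 fold change -1.79 with an SE of 0.429; edgeR adjusted p = 0.00765). Since Snord98 passed the filter only through the group where it is high, its call is a description, and so is its ratio to its host. Without it 4 of 30 snoRNA genes fell (13.3%). Snord2 and Snora35 are still among the 4, though they reached the filter's minimum in all WT but not in all enhancer KO libraries. Ccar1 itself fell by 0.31 ± 0.0455 (SE) on the log2 scale (edgeR adjusted p = 0.000358).

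The 5 called lower make 16.1% of the 31 tested, beside 17.9% of all genes, and 7 of 31 had every enhancer KO library below every WT library, beside 24.3% of all genes. Of the 31, none had every enhancer KO library above every WT library, beside 20.5% of all genes. Of the 79 not tested, 14 had every enhancer KO library below every WT library, and 1 had every one above. That 1 is Snord111, named after its values were seen, at under 0.2 CPM in every library. The shares of all genes given here are of tested genes. None was taken over all untested genes, so the counts among the 79 are descriptions. For the 0 called higher, 0 had an unadjusted edgeR p under 0.05 in that direction, and limma-voom and DESeq2 called 0. Log2 fold changes lay below 0 in 22 genes and above 0 in 9, with a median of -0.15 against 0.000586 over all genes.

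The count of 5 rested on few reads and on single libraries. It was 2 without WT replicate 2 or WT replicate 3, 3 without enhancer KO replicate 2 or 3, and 1 by DESeq2, which called Snord98 alone, so that DESeq2 called none of the other 30. Snora35 lost its call on leaving out any of the 6 libraries (edgeR adjusted p from 0.0559 to 0.135), Snora28 on leaving out any but enhancer KO replicate 1, Snord2 on leaving out either of WT replicates 2 and 3 or enhancer KO replicates 2 and 3, and Snord96a on leaving out WT replicate 3 or enhancer KO replicate 1. With each library's trend over gene structure removed, 0 were called lower and 6 higher, namely Snord64, Snord17, Snora74a, Snord42b, Snord104 and Snord55.

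The rarest snoRNA genes, those not tested, summed to 10.7, 9.67 and 9.68 CPM in WT, against 5.66, 6.01 and 6.09 CPM in enhancer KO, from 198 to 346 reads a library. These sums do not overlap between the groups, and the drop is seen in all 3 enhancer KO libraries alike, replicate 1 included. The snoRNA genes tested summed to 73.9, 84.0 and 76.3 CPM in WT, against 60.7, 87.5 and 91.7 CPM in enhancer KO. Reads outside exons are fewer in enhancer KO in the same way as the reads of the rarest snoRNA genes, and their part in this was not tested.

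By kind of host, 4 of 11 snoRNA genes in Snhg or Gas5 transcripts were tested, Snora74a, Snord22, Snora44 and Snora78, and 0 were called (edgeR; 0 at an unadjusted p under 0.05, and 0 by limma-voom and by DESeq2). Their median log2 fold change was 0.11. In protein-coding hosts 23 of 78 were tested, 5 of which fell (21.7%, beside 17.9% of all genes), with a median of -0.20. The kinds of host were not tested against each other. Gas5 holds 1 counted snoRNA, Snord47, with 39 reads in all, so no tested snoRNA could be set beside its fall. Snord47 had 0.308, 0.244 and 0.266 CPM in WT, against 0.106, 0.182 and 0.0959 CPM in enhancer KO. Its groups do not overlap, and it is 1 of the 14 untested genes with every enhancer KO library below every WT library. That count has no share of all untested genes beside it and is a description.

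The protein-coding hosts were read against the snoRNAs they hold. Of 58, all tested, 25 rose and 10 fell in enhancer KO, beside 13.4% and 17.9% of all genes. Among the 23 hosts for ribosomal proteins 19 rose and 0 fell (edgeR; 0 at an unadjusted p under 0.05 lower, and 0 by limma-voom and by DESeq2). Of these 23, 20 had every enhancer KO library above every WT library, beside 20.5% of all genes. Rps2 had a mean of 166 CPM in WT, against 223 CPM in enhancer KO (log2 fold change 0.43 with an SE of 0.0505; edgeR adjusted p = 8.39e-05). The median log2 fold change of these 23 was 0.23, and all 23 lay above 0, from 0.04 to 0.43. These are small changes, and the Purkinje markers, higher in enhancer KO, and the larger gene read totals of that group move with them. Their part was not tested.

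Among the other 35 protein-coding hosts 6 rose and 10 fell. Those that rose are the elongation factor genes Eef1b2 and Eef2, the initiation factor gene Eif5, Gnb2l1, Tpt1 and Snx5. Among the other initiation factor hosts Eif4g1 fell, and Eif4a2 and Eif3a were not called. The strongest fall was that of Rbmx, an RNA-binding protein gene, from a mean of 55.3 to 31.2 CPM (log2 fold change -0.82 with an SE of 0.0690; edgeR adjusted p = 8.64e-06). The other 9 had log2 fold changes from -0.33 to -0.13, among them the chromatin remodeller Chd8, the splicing factor Sf3b3 and Nop56, which encodes a core protein of box C/D snoRNPs and is itself a snoRNA host. The count of protein-coding hosts that fell was 6 without WT replicate 2, 5 without WT replicate 3, 4 without enhancer KO replicate 1, 5 without enhancer KO replicate 2, and 4 with library size in place of TMM scaling. A noncoding host outside the name rule, Dancr, fell from 3.56 to 1.83 CPM (log2 fold change -0.95 with an SE of 0.165; edgeR adjusted p = 0.00109).

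Each snoRNA was then compared with its own host inside each library, where scaling cancels. The log2 ratio of the snoRNA count to the host count was fitted by limma over 170 genes lying in introns of other genes, 28 of them snoRNAs. Relative to their hosts, 6 snoRNAs were lower in enhancer KO and 1 was higher, with 22 ratios below 0 and 6 above. The 6 make 21.4% of 28, beside 50.6% of all 170 such genes called lower, and the 1 makes 3.57%, beside 7.65% called higher. Snord98 is counted among the 6 but passed the filter through WT only, and without it 5 of 27 ratios (18.5%) were lower. Those 5 still include Snora31, Snora35 and Snord2, which reached the filter's minimum in all WT but not in all enhancer KO libraries.

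Snora74a was the one with a higher ratio. Its log2 ratio to Snhg4 was 1.24, 1.81 and 1.86 in WT and 1.93, 2.16 and 2.24 in enhancer KO, so all 3 enhancer KO libraries lay above all WT libraries. The difference was 0.47 ± 0.152 (SE; limma adjusted p = 0.0133). Without WT replicate 1, the lowest, it was 0.28 (limma adjusted p = 0.0744), and without enhancer KO replicate 3 it was 0.41 (limma adjusted p = 0.113), and in both cases no snoRNA had a higher ratio. Without WT replicate 2, 2 had one, the other being Snord22. Snora74a overlaps an exon of some Snhg4 transcripts in the annotation, so reads there cannot be fully assigned to snoRNA or host. The same holds for Snord22, Snora28, Snord96a and Snord2 with their own hosts, taken up below.

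Snord22 against Snhg1 had log2 ratios of -0.41, 0.27 and -0.90 in WT and -0.36, 0.46 and 0.68 in enhancer KO, which overlap (difference 0.60 ± 0.399, SE; limma adjusted p = 0.265). Snhg1 fell while Snord22 did not pass, and the difference between them did not pass either. Snord17 gave 253, 301 and 282 reads per 1000 reads of Snx5 in WT and 244, 305 and 286 in enhancer KO. Snx5 rose (log2 fold change 0.21 with an SE of 0.0508; edgeR adjusted p = 0.00762), and the ratio differed by -0.01 ± 0.112 (SE; limma adjusted p = 0.981).

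The 6 lower ratios belong to snoRNAs with few reads beside their hosts. Snora28 gave 8.50, 8.87 and 9.90 reads per 1000 reads of Eif5 in WT and 6.15, 3.77 and 5.14 in enhancer KO (log2 ratio lower by -0.88 ± 0.208, SE; limma adjusted p = 0.000745). Eif5 rose, with 214, 209 and 206 CPM in WT, against 238, 248 and 243 CPM in enhancer KO. Snord96a gave 9.002, 10.5 and 12.7 reads per 1000 reads of Gnb2l1 in WT and 4.02, 5.88 and 5.59 in enhancer KO (-1.06 ± 0.260, SE; limma adjusted p = 0.00106). In both pairs the groups do not overlap, and the host moved up as the snoRNA moved down. Both snoRNAs also overlap an exon of some host transcripts, so their reads cannot be fully assigned to snoRNA or host.

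Snord98 gave 8.48, 11.03 and 5.20 reads per 1000 reads of Ccar1 in WT and 2.89, 3.29 and 2.22 in enhancer KO, a difference of -1.44 in the log2 ratio, given as a description. Snora35 with Htr2c (-1.51 ± 0.374, SE; limma adjusted p = 0.00112), Snord2 with Eif4a2 (-1.25 ± 0.363, SE; limma adjusted p = 0.00456) and Snora31 with Tpt1 (-1.61 ± 0.445, SE; limma adjusted p = 0.00477) made up the rest. Snora31 itself was not called (log2 fold change -1.21 with an SE of 0.464; edgeR adjusted p = 0.0698) and its groups overlap, while Tpt1 rose by 0.23 on the log2 scale. Snora31, Snora35 and Snord2 reached the filter's minimum in all WT but not in all enhancer KO libraries, so their ratios are descriptions too. Each of the 6 ratios was called lower on leaving out any 1 library, which leaves that limit in place. With at least 1 CPM in 3 or more libraries, where fewer are tested, 2 ratios were called lower. Snora81, which like Snord2 lies in Eif4a2, gave 8.68, 7.79 and 9.03 reads per 1000 host reads in WT and 5.03, 8.73 and 8.79 in enhancer KO and did not pass (limma adjusted p = 0.383). The pair Snord53 and Wdr43 just missed the threshold, at -0.86 ± 0.386 (SE; limma adjusted p = 0.0576). Wdr43 was called lower, while Snord53 was not called (log2 fold change -1.04 with an SE of 0.415; edgeR adjusted p = 0.0780) and its groups overlap.

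**Figure D4:**
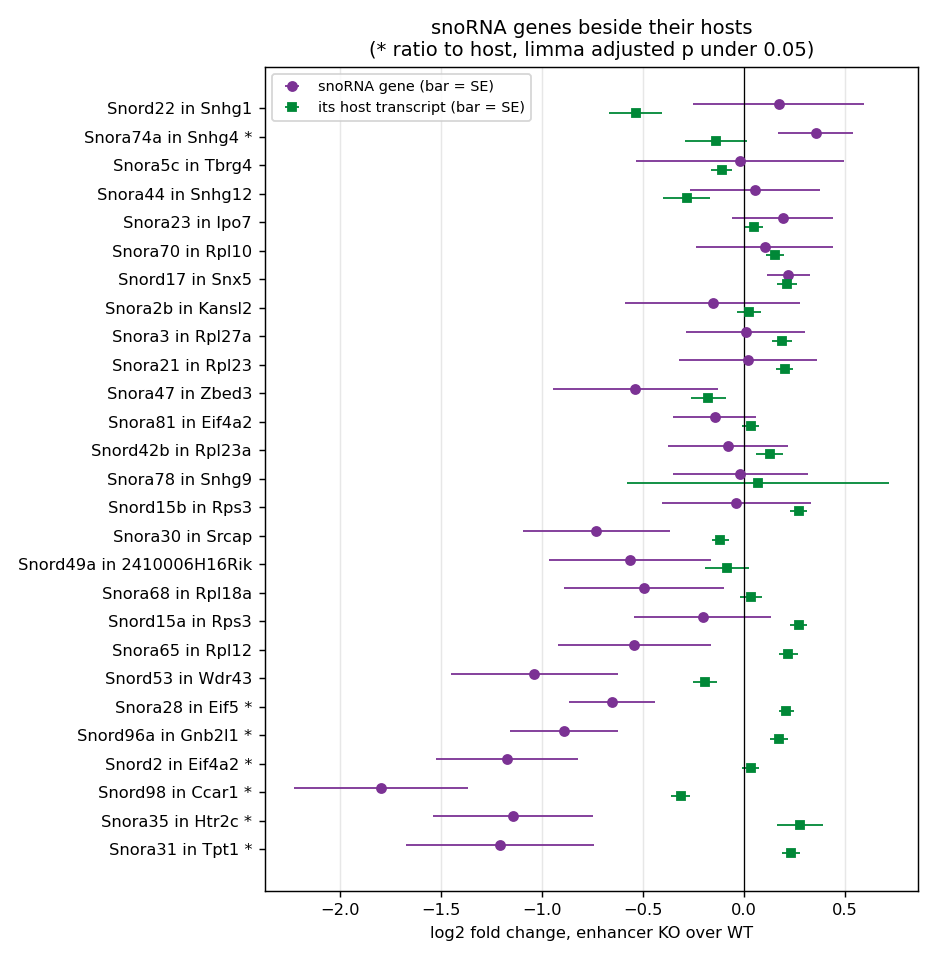
Log2 fold change (enhancer KO over WT) of 27 of the 28 snoRNA genes, circles, and of the host of each, squares, with SE bars, ordered by the change of their ratio. Stars mark the 7 pairs whose ratio passed a limma adjusted p of 0.05; the squares lie between -0.53 and 0.28, and the circles spread from -1.79 to 0.35 with wider bars.

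How far a snoRNA stands above its host per base went along with these results. Reads per base in the snoRNA were divided by reads per base in the exons of the longest host transcript that holds the snoRNA in an intron. This density was 31.9 for Snora74a, 6.81 for Snord22, 2.94 for Snord17, 2.57 for Snora78 and 1.41 for Snora44, and below 1 for the other 23, from 0.0120 to 0.641. The 5 dense snoRNAs had 0 ratios called lower and 1 called higher (limma), and the other 23 had 6 called lower and 0 called higher. The median change of the log2 ratio was 0.28 in the 5 and -0.55 in the 23, and the 6 lower ratios have densities from 0.0120 to 0.390. Snord98, 1 of the 6 and the one at 0.390, passed the filter on low counts through WT only, so its ratio is a description. So are those of Snora31, Snora35 and Snord2, which reached the minimum in all WT but not in all enhancer KO libraries. Of the 5 dense snoRNAs, 4 lie in Snhg transcripts, which have few exon reads. These are descriptions of 28 pairs that share hosts and libraries, and the difference between the 5 and the 23 was not tested.

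**Figure D5:**
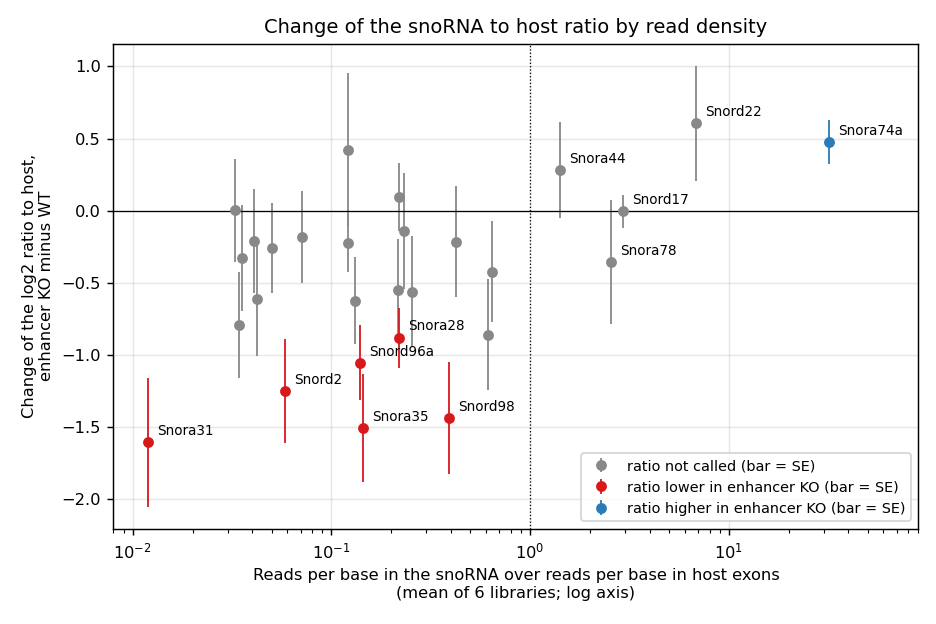
Change of the log2 snoRNA to host ratio (enhancer KO minus WT, vertical axis, with SE bars) against reads per base in the snoRNA over reads per base in host exons (log axis, mean of 6 libraries), for 28 pairs. The 6 pairs called lower lie left of the dotted line at 1, and Snora74a, called higher, is the point furthest right.

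Other RNAs read from introns give the scale of these values. Of 857 other genes lying in an intron on the same strand, 180 were tested, of which 88 fell (48.9%) and 8 rose (4.44%), beside 17.9% and 13.4% of all genes, with a median log2 fold change of -0.59. The microRNA genes among them give mature products shorter than most sequencing reads. Of 38 tested, 33 fell (86.8%) and 0 rose (edgeR; 1 at an unadjusted p under 0.05 higher, 1 called by DESeq2 and 0 by limma-voom), with a median of -1.69. The 31 snoRNA genes had a median of -0.15. Among the scaRNAs, which resemble snoRNAs but act on spliceosomal RNA in Cajal bodies, 6 of 9 were tested, and 2 rose (33.3%, beside 13.4% of all genes). Scarna10 had 61.7, 82.8 and 86.0 CPM in WT, against 104, 106 and 119 CPM in enhancer KO (log2 fold change 0.52 with an SE of 0.139; edgeR adjusted p = 0.0401). Scarna2 had 17.9, 18.7 and 17.7 CPM in WT, against 22.2, 24.5 and 27.0 CPM in enhancer KO (log2 fold change 0.44 with an SE of 0.0781; edgeR adjusted p = 0.00125). In both every enhancer KO library lay above every WT library.

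The genes for the proteins that bind and trim snoRNAs were read in the same way. Of the 4 box C/D core proteins Nop56 fell (log2 fold change -0.19 with an SE of 0.0568; edgeR adjusted p = 0.0216) and Nhp2l1 rose (0.16 ± 0.0554, SE; edgeR adjusted p = 0.0493). Nop56 lost its call on leaving out enhancer KO replicate 1, enhancer KO replicate 2 or WT replicate 2, and Nhp2l1 on leaving out any library but WT replicate 2. Of the 4 box H/ACA proteins 0 were called (edgeR; 0 at an unadjusted p under 0.05, and 0 by limma-voom and by DESeq2), and of 11 assembly factors the helicase gene Ruvbl1 alone was called, with a rise of 0.19 ± 0.0674 (SE) on the log2 scale (edgeR adjusted p = 0.0474). Ruvbl1 lost that call on leaving out any of the 6 libraries (edgeR adjusted p from 0.0635 to 0.125), and DESeq2 called 0 assembly factors. Of 15 genes for intron release and trimming 5 fell and 0 rose (edgeR; 0 at an unadjusted p under 0.05 higher, and 0 by limma-voom and by DESeq2), beside 17.9% of all genes called lower. They are Exosc10, the nuclear exosome nuclease that trims snoRNA ends (45.5 to 35.1 CPM; edgeR adjusted p = 0.00015), the exonuclease gene Xrn2 (52.9 to 42.7 CPM; edgeR adjusted p = 0.00165), the exosome genes Exosc8 and Dis3, and the exosome cofactor Mphosph6. Their log2 fold changes ranged from -0.48 to -0.21. Exosc10 and Xrn2 were called whichever library was left out, while Mphosph6 lost its call without any 1 of the 6, Dis3 without any but enhancer KO replicate 3, and Exosc8 without WT replicate 2 or enhancer KO replicate 1. DESeq2 called 3 of the 15.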

How the data were processed

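RNA-seq of 3 WT and 3 enhancer KO samples was analysed. Trimmomatic, STAR and the build mm10 are named in the submitters' processing notes. Their versions and the gene annotation were not given in sources used here. The authors deposited read counts per gene for both strands and for each strand, not normalized. Reads that align to several places are not counted, so snoRNA genes with near-identical copies are read with less certainty. Such reads made 7.10% to 8.21% of all reads in WT and 10.2% to 11.3% in enhancer KO. Reads ambiguous between genes made 0.230% to 0.347% and 0.438% to 0.447%. Neither pair of ranges overlaps, and the part of these reads in the results was not tested. Unmapped reads made 20.4% in WT replicate 2, against 7.79% to 8.32% elsewhere. The 4 rows that name no gene stayed out of tests, and the reads outside exons are given in the report. The count of the strand in column 4 was used (1.62% to 1.88% of stranded reads lay on the other).

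Counts were filtered with filterByExpr, scaled by TMM and tested in edgeR 4.0.16 (R 4.3.3, quasi-likelihood, robust, two-sided, Benjamini-Hochberg over 15846 genes). SEs were derived from the fold change and its F statistic. Ratios to hosts were tested with limma 3.58.1 on log2 of both counts plus 0.5, adjusted over 170 pairs. Shares are values without a test, since 3 against 3 can give no p below 0.1. Positions, hosts and sequences came from GENCODE M21 on mm10. Of the 24411 symbols 282 had no unique match, among them Snhg7. A host is the tested gene on the same strand that holds the snoRNA in an intron, the one with the highest mean CPM where there are several; 51 of the 101 snoRNAs with a host also overlap an exon of some host transcript. Tests were checked on simulated data.

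The members and lists were chosen with earlier results of these data known. Named were every host; up to 12 snoRNA genes of smallest adjusted p and at least 1 CPM (10 reached that level); the 8 with highest CPM; up to 6 ratios per direction of smallest adjusted p at that level; Snord98; their hosts; Atoh7; and list members called. A few more were named after their values were seen. Some items are not reported here. As alternatives, results were recomputed with RLE scaling, with library size only, with other filters, replicate block, both strands, limma-voom, DESeq2 1.42.0, a trend over gene structure (mgcv 1.9.3), other prior counts, offsets and hosts for ratios, other denominators for shares, and leaving out each library.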

Additional observations from a re-analysis of the deposited data

How the results depend on the processing

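Over 83 single genes and ratios, 1001 of 1181 values under an alternative kept their direction and side of the threshold, 138 lost a call and 35 gained one. The 8 Snhg and Gas5 hosts called lower were 6 to 8 on leaving out a library, and the 25 protein-coding hosts called higher 22 to 29. Called lower, snoRNA genes (5) were 2 with at least 1 CPM in 3 or more libraries, where fewer are tested, 1 by DESeq2, 0 with the trend over gene structure removed, and 2 to 5 on leaving out a library. Called higher, snoRNA genes (0) were 1 with library size alone, 6 with the trend removed, and 0 to 2 on leaving out a library. Protein-coding hosts called lower (10) were 4 with library size alone and 4 to 10 on leaving out a library. Ratios called lower (6) were 2 at 1 CPM or more, again of fewer tested, and 6 to 9 on leaving out a library, and ratios called higher (1) were 0 with no host exon over the snoRNA, where Snora74a is not tested, and 0 to 2 on leaving out a library. All genes called (4964) were 3652 to 4924 on leaving out a library.

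The enhancer KO minus WT share of gene reads in snoRNA genes, 0.000194 percentage points, was -0.000258 without Rn45s, 0.00148 over all reads, and -0.000401 to 0.00120 on leaving out a library; without enhancer KO replicate 2 it was -0.000219. That of Snhg and Gas5, -0.0441, was -0.0160 over all reads and -0.0503 to -0.0354 on leaving out a library. With the trend removed, log2 fold changes turned above 0 for Snhg14 (0.0229), Snora28 (0.00999), Snord104 (0.754), Snord64 (1.34), Snord96a (0.173), Snord2 (0.101) and Smg5 (0.000321); the cause was not tested. Of all calls, 57.3% were lower as reported, against 43.8% when scaled by library size and 42% after trend removal.

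Replicate numbers do not pair the libraries: same-numbered libraries correlate at 0.0526, -0.0386 and -0.0795. With the number as a block, 4596 genes were called, 5 snoRNA genes lower and 1 higher (Snora74a, edgeR adjusted p = 0.0191), 7 hosts lower, 27 protein-coding hosts higher and 9 lower, and 8 ratios lower and 1 higher. Most snoRNA genes had too few counted reads to test: 79 of 110 did not pass the filter on low counts. Why their reads are few was not tested.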

Other observations

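Genes of nonsense-mediated decay, the pathway known to degrade spliced Gas5 and several Snhg transcripts, were fewer in enhancer KO for 7 of 14 and more for 1, beside 17.9% and 13.4% of all genes. Smg1, the kinase of the pathway, had 309, 324 and 307 CPM in WT and 184, 173 and 184 CPM in enhancer KO, with groups that lie far apart (log2 fold change -0.80 ± 0.0427, SE; edgeR adjusted p = 2.52e-07). Upf3b, an adaptor to the exon junction complex, had 20.3, 23.1 and 20.1 CPM in WT and 14.9, 15.1 and 15.2 CPM in enhancer KO (log2 fold change -0.48 ± 0.0732, SE; edgeR adjusted p = 0.000477). Others of the 7, among them Smg9, Upf1, Casc3 and Smg5, fell by less, with log2 fold changes from -0.32 to -0.12, and Rbm8a, a core gene of the exon junction complex, rose by 0.17. Smg5 was not lower with the trend over gene structure removed. It lost its call on leaving out any library but enhancer KO replicate 3, and Rbm8a on leaving out any but WT replicate 2 and enhancer KO replicate 1.

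Of 21 genes for the nucleolus and the making of ribosomal RNA, 6 fell (28.6%, beside 17.9% of all genes) and 0 rose (edgeR; 0 at an unadjusted p under 0.05 higher, and 0 by limma-voom and by DESeq2). Utp14a, a processing factor of the small subunit, had 13.6, 15.1 and 14.1 CPM in WT and 9.99, 11.8 and 11.7 CPM in enhancer KO (log2 fold change -0.34 ± 0.0893, SE; edgeR adjusted p = 0.0119). Taf1b and Taf1c, of the selectivity factor for RNA polymerase I, Polr1a, its largest subunit, Wdr43 and Ubtf fell by similar or smaller amounts, with log2 fold changes from -0.32 to -0.17. Each of the 6 lost its call on leaving out some single library: Ubtf without any but WT replicate 1, Wdr43 without any but WT replicate 1 and enhancer KO replicate 3, Utp14a without WT replicate 2 or enhancer KO replicate 1, Taf1b without enhancer KO replicate 1 or 2, Taf1c without WT replicate 2 or enhancer KO replicate 3, and Polr1a without WT replicate 3 or enhancer KO replicate 3. The median of the 21 was -0.13, and 13 lay below 0 and 8 above. The ribosomal RNA precursor gene Rn45s had 29566 and 29517 CPM in WT replicates 1 and 3, 143857 CPM in WT replicate 2 and 14712 to 16433 CPM in enhancer KO, and was not called (log2 fold change -2.10; edgeR adjusted p = 0.137). Without WT replicate 2 it was called lower, with a log2 fold change of -0.90 (edgeR adjusted p = 2.1e-06), and DESeq2 called it over all 6 libraries (DESeq2 adjusted p = 0.0388). The RNase components Rpph1 and Rmrp, small noncoding RNAs made by RNA polymerase III, were not called (edgeR adjusted p = 0.141 and 0.651). Rpph1 was called higher without WT replicate 1 (edgeR adjusted p = 0.00693) and without WT replicate 2 (edgeR adjusted p = 0.0203).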
